A study of Mus musculus with 10 samples.

Results

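A set of 8 transcripts that are textbook markers of macrophages and dendritic cells were followed through 10 RNA libraries of sorted lung group 2 innate lymphoid cells (ILC2). They are Chil3, Lyz2, Ear2, Ctss, Cd68, Mrc1, Xcr1 and Csf1r, 8 of the 54838 genes in the deposited count table, and 7 of the 8 had any count. The members were chosen by their counts in these same WT and KO libraries, with earlier results in view, so the differences between genotypes and the pattern across libraries are given for these genes as descriptions, without a test. The lymphocytes came from the lungs of C57BL/6 mice in which inflammation had been induced with papain, a plant protease used as an allergen. The mice were either wild type (WT) or lacked the transcription factor c-Maf (KO), and littermates of the genotypes shared cages. The cells were sorted as negative for lineage markers and positive for CD90.2, with or without ST2 and KLRG1, and total RNA was sequenced as 5 WT and 5 KO libraries. How Maf was deleted, and in which cells, is not given in the sources used here. Nothing in the labels ties each library to its own mouse, so every p-value below measures the spread between libraries. These are called WT1 to WT5 and KO1 to KO5 in the order of deposit.

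Macrophages engulf and digest particles, and they carry a lysosomal and secretory program that lymphocytes use little. Alveolar macrophages line the airspaces and, during type 2 inflammation, macrophages secrete large amounts of chitinase-like proteins. Conventional dendritic cells present antigen to T cells, and the type 1 subset is recognised by the chemokine receptor XCR1. In the set, Chil3 encodes the secreted chitinase-like protein Ym1, Ear2 an eosinophil-associated ribonuclease and Lyz2 the lysozyme of myeloid cells. Ctss encodes cathepsin S, a lysosomal protease that trims the invariant chain of MHC class II, and Cd68 a glycoprotein of late endosomes and lysosomes. Mrc1 encodes the mannose receptor, Csf1r the receptor for the macrophage growth factor CSF1, and Xcr1 the receptor for the chemokine XCL1.

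The sequences just upstream of 5 of these genes are printed because these 5 cover the patterns seen across the libraries: Chil3, Lyz2 and Cd68, which were highest in WT4, Mrc1, which was highest in WT2, and Xcr1, which was highest in WT2 but also present in WT1 and WT5. They come from RefSeq on the GRCm38.p6 build, run 5′ to 3′ on the strand of the gene and end at the base before the first annotated start. The windows are chr3:106167565-106167814 for Chil3, chr10:117282322-117282522 for Lyz2 and chr11:69666171-69666420 for Cd68, all on the minus strand. Those of Mrc1 and Xcr1 are chr2:14229164-14229391 on the plus strand and chr9:123862030-123862279 on the minus strand. Capitals mark matches, on either strand, to GAGGAA and AGGAAGT (core letters bound by PU.1 and other ETS factors), TGCTGA (the core of the MAF recognition element) and TATAAA (the TATA box).
Chil3: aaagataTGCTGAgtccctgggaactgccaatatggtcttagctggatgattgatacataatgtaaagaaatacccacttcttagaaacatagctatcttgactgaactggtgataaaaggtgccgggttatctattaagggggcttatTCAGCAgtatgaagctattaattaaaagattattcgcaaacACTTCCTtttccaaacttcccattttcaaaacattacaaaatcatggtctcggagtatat
Lyz2: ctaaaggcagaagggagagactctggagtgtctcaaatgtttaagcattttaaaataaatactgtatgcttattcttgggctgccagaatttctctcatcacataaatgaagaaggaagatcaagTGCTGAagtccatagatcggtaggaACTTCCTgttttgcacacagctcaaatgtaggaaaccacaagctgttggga
Cd68: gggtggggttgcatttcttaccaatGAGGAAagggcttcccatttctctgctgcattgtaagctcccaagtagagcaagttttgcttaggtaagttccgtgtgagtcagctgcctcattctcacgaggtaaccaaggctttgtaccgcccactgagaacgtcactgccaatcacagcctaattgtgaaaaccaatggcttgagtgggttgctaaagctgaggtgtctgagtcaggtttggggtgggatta
Mrc1: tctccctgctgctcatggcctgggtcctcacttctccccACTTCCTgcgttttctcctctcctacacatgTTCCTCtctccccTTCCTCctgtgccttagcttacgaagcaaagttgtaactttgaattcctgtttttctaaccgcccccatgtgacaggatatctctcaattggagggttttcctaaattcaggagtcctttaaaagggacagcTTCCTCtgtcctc
Xcr1: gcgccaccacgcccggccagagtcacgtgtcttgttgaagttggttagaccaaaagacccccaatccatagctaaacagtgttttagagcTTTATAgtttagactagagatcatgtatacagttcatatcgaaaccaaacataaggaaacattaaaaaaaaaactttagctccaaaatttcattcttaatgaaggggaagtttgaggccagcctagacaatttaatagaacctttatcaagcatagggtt
AGGAAGT, which overlaps GAGGAA where the letters run together, was found once in Chil3, with its first base 60 bases before the start, once in Lyz2, 51 bases before, and once in Mrc1, 189 bases before. TGCTGA was found 2 times in Chil3 and 1 time in Lyz2. GAGGAA was found 1 time in Cd68 and 3 times in Mrc1. The Xcr1 window held 1 match, to TATAAA. Among 32851 RefSeq promoters, read over the 250 bases before the start, 23.3% held GAGGAA, 7.69% AGGAAGT, 16.1% TGCTGA and 12.4% TATAAA. A match is a description of these letters and not a site of binding.

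Totals ranged over 21400938 to 24489987 counts per WT library and 3620002 to 9867580 per KO library, with 11880 ± 803 genes (SD, n = 5) with a count in WT and 6268 ± 1492 in KO. Levels are counts per 1000000 (CPM) after scaling by the trimmed mean of M-values (TMM), which used factors of 1.46 to 1.91 for WT libraries and 0.18 to 0.928 for KO libraries. A count of 3 was worth 0.0664 to 0.0901 CPM in a WT library and 0.411 to 3.53 CPM in a KO library, and a gene with at most 3 counts is called missing from that library. KO1 stood apart, with 18.96% of its counts in globin genes against at most 0.0748% in every other library. The other KO libraries also lay above WT, with 0.0107 to 0.0748% in KO2 to KO5 and at most 0.000919% in any WT library. Maf itself had 12919 counts in WT and 108 in KO, all of the latter in KO4. Which part of Maf is deleted is not given in the sources used here, so these 108 counts neither support nor contradict the label of KO4, and results are also given without it. The 15 ILC2 genes listed, among them Gata3, Il7r, Il13 and Il1rl1, all had over 3 counts in every WT library, and 9 to 13 of them did in the KO libraries.

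The most abundant transcript of the set in WT was Chil3 (ENSMUSG00000040809, chr3:106147554-106167564, GRCm38, minus strand). Its counts were 16 in WT1, 5954 in WT2, 5168 in WT3, 58165 in WT4 and 9 in WT5. Scaled, these were 0.458, 133, 155, 1287 and 0.205 CPM, so the libraries of 1 genotype fell into 3 with at least 5168 counts and 2 with at most 16. Chil3 was the 17th most abundant gene in WT4, the 366th in WT3 and the 529th in WT2, but the 8071st in WT1 and the 10047th in WT5. WT4 alone held 83.9% of the WT counts, and the WT mean of 315 ± 548 CPM (SD, n = 5) dropped to 72.2 ± 83.5 CPM (n = 4) without it. In KO1 to KO5 the counts were 1, 2, 3, 2 and 9, or 1.18, 0.30, 0.411, 0.285 and 3.94 CPM. The groups overlapped, since WT1 and WT5 lay within or below the KO values. About 29.4% of the 50-base stretches of the longest Chil3 transcript are shared with another gene, most with its neighbour Chil4, which had 4 counts in WT4, 1 in KO4 and none elsewhere.

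Lyz2 (ENSMUSG00000069516, chr10:117277331-117282321, minus strand) was present in every WT library. Its counts were 672, 2157, 934, 11144 and 31 in WT1 to WT5, equal to 19.3, 48.2, 28.1, 247 and 0.705 CPM. WT4 was again highest, with 74.6% of the WT counts, and WT5 again lowest, but WT1 lay with WT2 and WT3 rather than with WT5. The mean of 68.6 ± 101 CPM (SD, n = 5) became 24.1 ± 19.7 CPM (n = 4) without WT4. KO1 to KO5 held 0, 0, 1, 3 and 1 counts, or 0 to 0.438 CPM, and each lay below every WT library. The paralog Lyz1, which shares 15.4% of the 50-base stretches of Lyz2, was at 0 in all 10 libraries.

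Ear2 (ENSMUSG00000072596, chr14:44102654-44103534, plus strand) was listed at 0 in every library, and this zero carries no information on the transcript. All 719 of its exon bases lie inside Gm49101, a long noncoding gene on the opposite strand. Of 1477 protein-coding genes whose exons lie wholly inside another gene, 94.4% were at 0 in every library, against 34.9% of 14059 without overlap. Ear2 was therefore treated as not measured, and the same holds for Ear1, which is enclosed in the same way. In addition, 41.5% of the 50-base stretches of Ear2 are shared, mostly with Ear10.

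Of the lysosomal members, Ctss (ENSMUSG00000038642, chr3:95526786-95556403, plus strand) was the most evenly spread. Its counts in WT1 to WT5 were 1300, 931, 3045, 8612 and 1444, equal to 37.2, 20.8, 91.5, 190.5 and 32.9 CPM. WT4 was highest, but WT1 and WT5, which had almost no Chil3, held more Ctss than WT2. In KO1 to KO5 the counts were 0, 1, 507, 423 and 1, so KO3 with 69.4 CPM and KO4 with 60.3 CPM lay inside the WT range while the other 3 were at or near 0. Ctss was the 1 member with more than 9 counts in a KO library, and 932 of the 957 counts of the whole set in KO were its own. The WT mean was 74.6 ± 70.3 CPM (SD, n = 5), the KO mean 26.1 ± 35.6 CPM (SD, n = 5), and the WT mean without WT4 was 45.6 ± 31.4 CPM.

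Cd68 (ENSMUSG00000018774, chr11:69664213-69666153, minus strand) had 0, 151, 455, 1208 and 0 counts in WT1 to WT5, or 0, 3.38, 13.7, 26.7 and 0 CPM. It was thus seen in the same 3 WT libraries that were rich in Chil3. All 5 KO libraries were at 0, as were WT1 and WT5. The WT mean was 8.75 ± 11.5 CPM (SD, n = 5), and 4.26 ± 6.47 CPM without WT4.

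Mrc1 (ENSMUSG00000026712, chr2:14229392-14332057, plus strand) led in WT2 rather than in WT4. Its counts were 1, 743, 21, 531 and 0, equal to 0.0287, 16.6, 0.631, 11.8 and 0 CPM in WT1 to WT5. KO4 and KO5 held 1 count each and the other KO libraries none. The WT mean was 5.80 ± 7.84 CPM (SD, n = 5), the KO mean 0.116 ± 0.19 CPM (SD, n = 5), and the groups overlapped at the low end because WT5 was at 0.

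Csf1r (ENSMUSG00000024621, chr18:61100598-61132149, plus strand) was also highest in WT2. It had 7, 353, 0, 111 and 36 counts in WT1 to WT5, or 0.201, 7.89, 0, 2.46 and 0.819 CPM. WT3, with the third highest Lyz2 and the second highest Cd68 of the WT libraries, had no Csf1r count. KO5 held 1 count and the other KO libraries 0. The WT mean was 2.27 ± 3.29 CPM (SD, n = 5). Because 15.1% of its exon bases lie inside another gene, its counts are uncertain.

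Xcr1 (ENSMUSG00000060509, chr9:123852315-123862029, minus strand) ran differently from Chil3, Lyz2, Ctss and Cd68. Its counts were 198, 305, 27, 97 and 116 in WT1 to WT5, equal to 5.67, 6.82, 0.811, 2.15 and 2.64 CPM. WT1 and WT5, poor in Chil3, Cd68 and Mrc1, held more Xcr1 than WT3 and WT4. All 5 KO libraries were at 0, below every WT library, and the WT mean was 3.62 ± 2.52 CPM (SD, n = 5). When each library was thinned to the smallest total of 3620002 counts, WT1 to WT5 kept 38, 51, 1, 9 and 14 Xcr1 counts, so WT3 at that depth was as good as missing too.

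**Figure D1:**
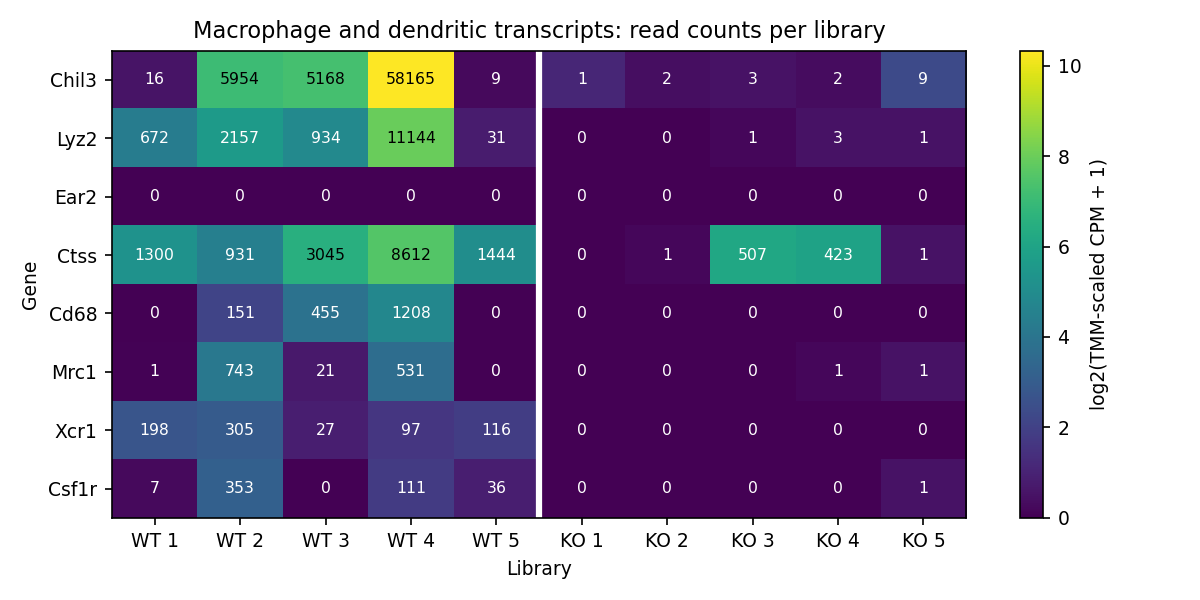
Counts of the 8 genes (rows) in each of the 10 libraries (columns, 5 WT and 5 KO); each cell prints the count and the shade gives log2(TMM-scaled CPM + 1). WT4 is highest for Chil3, Lyz2, Ctss and Cd68 and WT2 for Mrc1, Csf1r and Xcr1, and the KO columns are near 0 apart from Ctss in KO3 (507) and KO4 (423).

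Per kilobase of exon, the WT means ran from 193 CPM for Chil3 through 54.9 for Ctss, 52.1 for Lyz2, 6.96 for Cd68, 0.911 for Mrc1 and 0.812 for Xcr1 to 0.394 for Csf1r. The order is loosely fixed, since the SD between WT libraries exceeded the WT mean for Chil3, Lyz2, Cd68, Mrc1 and Csf1r. For Ctss and Xcr1 the SD was below the mean. Summed over the set, WT1 to WT5 held 2194, 10594, 9650, 79868 and 1636 counts, and KO1 to KO5 1, 3, 511, 429 and 13.

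Across the 5 WT libraries, Chil3, Lyz2 and Cd68 tended to be high in the same libraries. Ctss, Mrc1 and Csf1r shared that order in part, and Xcr1 did not share it. Pearson correlations of log2(CPM + 1) were computed for the 21 pairs of the 7 genes with counts, as descriptions, because 5 libraries are too few for a test and 1 of them, WT4, is far out. The median r over the pairs was 0.549 (n = 5 libraries) and the median Spearman rho 0.5, beside 0.005 and 0 over all pairs of genes tested. The highest was Chil3 with Cd68, at r = 0.962 and rho = 0.975. Mrc1 with Csf1r followed at r = 0.887, and Chil3 with Lyz2 at r = 0.855. Csf1r had r = 0.444 with Chil3, 0.388 with Lyz2, 0.194 with Cd68 and -0.266 with Ctss. Mrc1 had r = 0.79 with Chil3, 0.748 with Lyz2, 0.6 with Cd68 and 0.158 with Ctss. Only 1 of the 21 pairs exceeded 0.9, which 2.5% of all gene pairs did.

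Xcr1 had r between -0.711, with Ctss, and 0.549, with Csf1r, and 4 of its 6 pairs were below 0. The 15 pairs without Xcr1 had a median of 0.63, and the lowest was Ctss with Csf1r at -0.266. Leaving out 1 WT library at a time moved the median over the 21 pairs from 0.38, without WT4, to 0.81, without WT2. All these points share the same 5 libraries, their totals and their scaling.

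**Figure D2:**
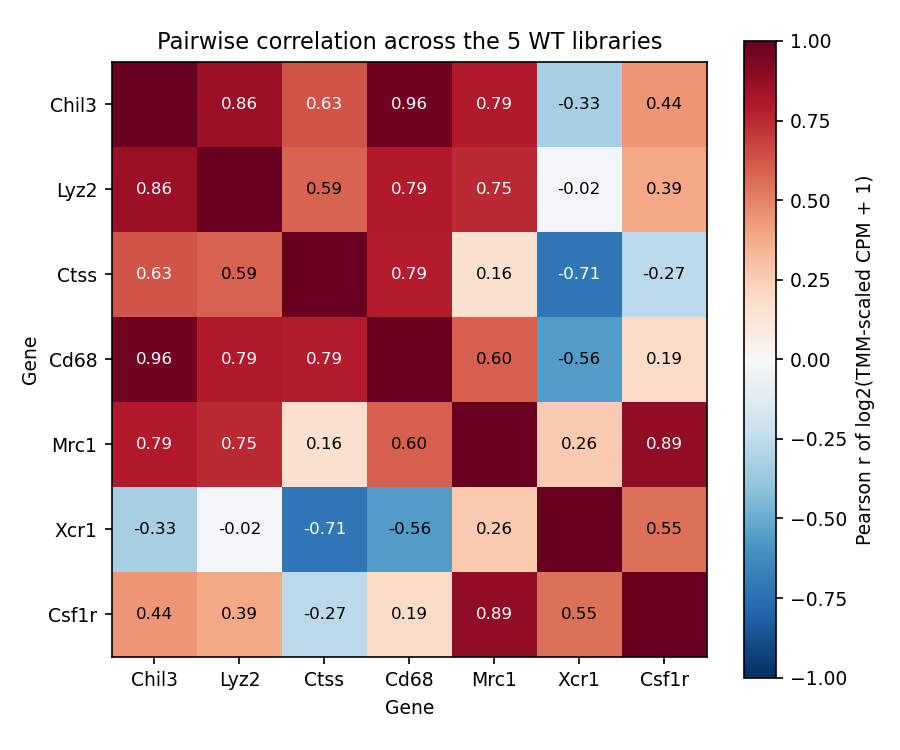
Pearson r of log2(CPM + 1) over the 5 WT libraries for each pair of the 7 genes with counts, from -1 to 1. Chil3 and Cd68 are at 0.96, Mrc1 and Csf1r at 0.89, and Xcr1 and Ctss at -0.71.

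The spread between WT libraries of Chil3 and Lyz2 was wide even beside other genes. The SD of log2(CPM + 1) over the 5 WT libraries was 4.47 for Chil3, above 99.99% of the 7490 genes tested, and 2.599 for Lyz2, above 99.93%. It was 1.26 for Ctss, above 86.0%, and 0.85 for Xcr1, above 58.7%, beside a median of 0.76.

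Other genes of macrophages were mostly found in the same WT libraries; this list, like the set, was made with earlier results of these data known and is no independent support. Of 16 mononuclear phagocyte genes outside the set, 14 had over 3 counts in at least 1 WT library, and 12 of these 14 were highest in WT4. The share of all genes highest in WT4 is not given here, so nothing is read from this number. WT4 also had the most genes with a count, 12744 against 10577 to 12244 in the other WT libraries. Their summed level was 4.44, 54.0, 72.7, 177 and 2.41 CPM in WT1 to WT5. WT1 and WT5 were low and WT2, WT3 and WT4 high, as for Chil3 and Cd68. Tyrobp, an adaptor of activating receptors on myeloid cells, had 0, 9, 362, 670 and 0 counts. Clec7a, the beta-glucan receptor dectin-1, had 0, 463, 475, 1502 and 0 counts. Spi1, which encodes PU.1, had 129 counts in WT2 and 139 in WT4, 4 in WT3 and 0 in WT1 and WT5. Fcgr1, a defining Fc receptor of macrophages, was at 0 in all 10 libraries.

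The same list in KO gave 63.5, 0.750, 0.274, 0.570 and 78.9 CPM in KO1 to KO5. The high sums of KO1 and KO5 rest on few genes: Adgre1 with 30 counts and Fcer1g with 22 in KO1, and Sirpa with 172 in KO5. In bulk RNA, the number of cells that hold these transcripts and their amount per cell cannot be told apart. Which cells held them was not tested.

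**Figure D3:**
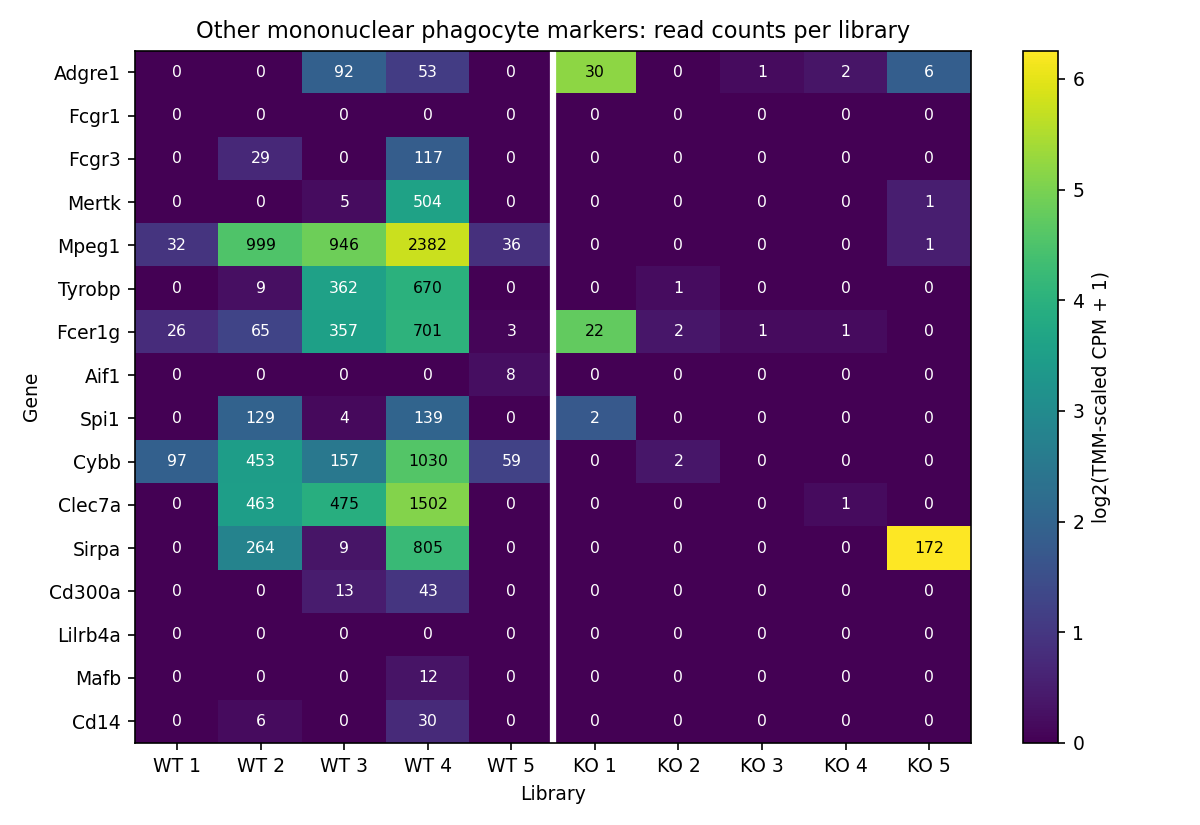
Counts of the 16 mononuclear phagocyte genes outside the set (rows) in the 10 libraries (columns), with log2(TMM-scaled CPM + 1) as shade. Tyrobp and Clec7a, like Cd68, are filled in WT2, WT3 and WT4 and at 0 in WT1 and WT5.

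Markers of the alveolar macrophage were present in part. Of the 15 outside the set, 9 had over 3 counts in at least 1 WT library. Of these 9, 5 were highest in WT4, a number with the same limit as the 12 of 14 above. Ear1 and Plet1 lie inside another gene and were not measured. Atp6v0d2, a subunit of the vacuolar proton pump, had 281, 90 and 1562 counts in WT2, WT3 and WT4 and 0 in WT1 and WT5. The lipase gene Lpl had 173, 65 and 626 counts and the integrin gene Itgax 46, 296 and 538 in those 3 libraries, and both were at 0 in WT1, WT5 and all KO libraries. Siglecf, a defining surface lectin, was highest in WT5, with 0, 8, 0, 8 and 37 counts in WT1 to WT5. The cholesterol exporter gene Abcg1 was in every WT library and highest in WT3, with 1886 counts. Marco had 1 count in all, and Fabp4, Krt79 and Cidec had none. Pparg, a fatty acid receptor used by alveolar macrophages, had 4329 to 11217 counts in every WT library and 2139 to 5535 in KO3, KO4 and KO5, and so did not follow the set. Of the 15 interstitial macrophage genes, C1qa, Pf4, Lyve1, Cbr2 and Folr2 were at 0 in all libraries, Folr2 with 63.1% of its exon bases inside another gene. The complement gene C1qb had 66 counts in WT4 and 4 in WT3. Apoe, the highest of the list per kilobase, had 119, 273, 91 and 109 counts in WT1 to WT4. It had 0 in WT5 and 1 count in KO3 alone of the KO libraries. Stab1 and Cx3cr1 of the same list had counts in every WT library and are given below.

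The other dendritic cell genes were found in part. Of the type 1 dendritic cell genes, Clec9a, a receptor for dead cells, had 50 counts in WT2 and none elsewhere, and the transcription factor gene Batf3 had 28 in WT4, none in the other WT libraries and 1 in KO1. Flt3, the receptor of the dendritic growth factor, had at most 2 counts in any library, and Irf8 lies inside another gene and was not measured. WT1, with 198 Xcr1 counts, had none of Clec9a, Batf3 and Flt3. For the type 2 subset, Cd209a and Ccl17 were at 0 in every WT library. Other listed genes were present: Itgae, an integrin that lymphocytes also use, had 2342 to 6187 counts in every WT library, Naaa 15 to 193, and the adhesion gene Cadm1 had 166 in WT2, 40 in WT5 and at most 10 in the other WT libraries. Of the type 2 list, Tmem176a and Tmem176b had at least 551 counts in every WT library, Zbtb46 15 to 454, and Itgax was given above. The source of the Xcr1 counts was not tested.

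The summed level of the 15 ILC2 genes was 6207, 6281, 5066, 4124 and 5761 CPM in WT1 to WT5 and 4200, 22320, 16900, 12010 and 20020 CPM in KO1 to KO5. The KO sums depend on the TMM factors, which were lower in KO. As a share of each library's counts, the genes held 0.773 to 1.15% in WT. In KO1 to KO5 they held 0.0750, 1.64, 1.43, 0.854 and 1.26%. In the test over all genes given below, 1 of these 15 was lower in KO and 0 were higher, beside 27.1% and 1.5% of all genes tested. In WT the summed level was lowest in WT4 and next lowest in WT3, the libraries with the 2 highest sums of phagocyte genes. It was highest in WT2, where the phagocyte genes outside the set summed to 54.0 CPM, against 4.44 in WT1 and 2.41 in WT5. The part of the ILC2 genes in the pattern was not tested.

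**Figure D4:**
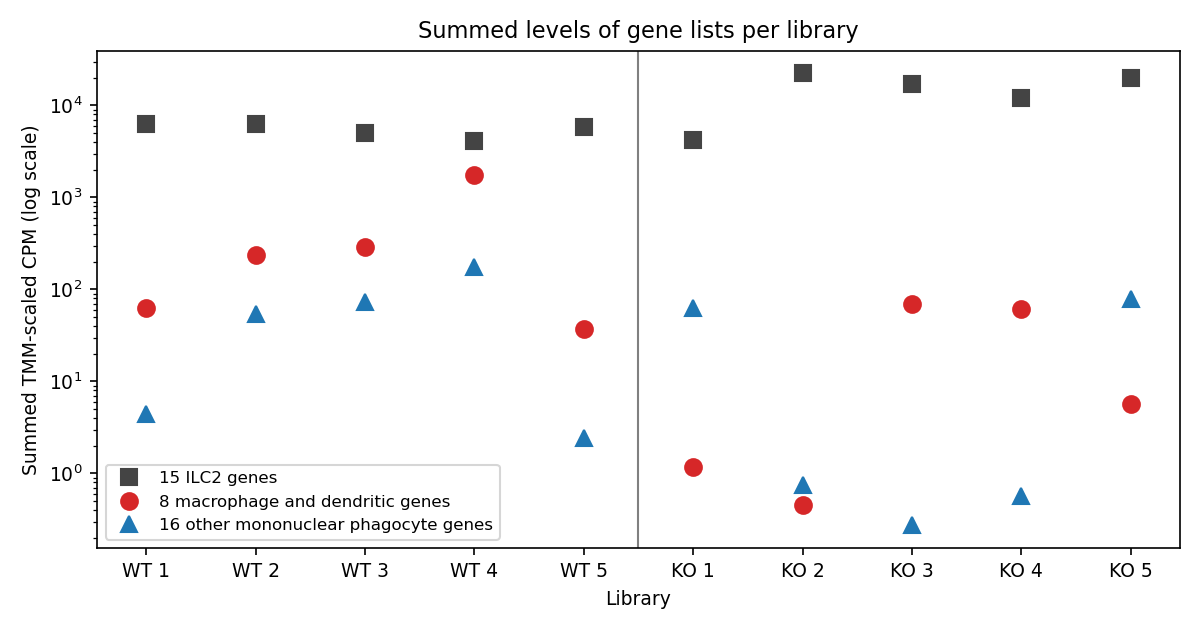
Summed TMM-scaled CPM of the listed genes in each library, on a log axis, for the set, for the other mononuclear phagocyte genes and for the ILC2 genes. Among WT libraries the phagocyte genes outside the set run from 2.41 (WT5) to 177 CPM (WT4), while the ILC2 genes stay between 4124 and 6281 CPM.

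Between genotypes, 3 of the 4 members that could be tested were lower in KO. The comparison across all genes used edgeR's quasi-likelihood test with Benjamini-Hochberg adjustment, and 27.1% of the 7490 genes tested were lower in KO and 1.5% higher at an adjusted p under 0.05. Of the 4 members that passed the filter on low counts, Chil3, Lyz2 and Xcr1 were among the genes lower in KO, none was higher, and Ctss was not called. Cd68, Mrc1 and Csf1r had too few libraries with counts to be tested. Nothing is read from these counts, since the set was chosen with them known. In 2 members, Lyz2 and Xcr1, every KO library lay below every WT library, as in 28.9% of all genes tested.

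The fitted log2 difference, KO against WT, was -8.06 (SE 2.36) for Chil3, -8.30 (SE 2.19) for Lyz2, -9.36 (SE 1.74) for Xcr1 and -1.51 (SE 1.76) for Ctss, beside a median of -0.47 over all genes tested. The value for Xcr1 depends on the prior count, since KO was at 0. Without WT2, without WT3 or without WT4, Chil3 no longer passed the filter and was not tested. Without KO1 the differences were -7.79 for Chil3, -8.06 for Lyz2, -9.52 for Xcr1 and -1.22 for Ctss. Without KO4 they were -7.41, -8.67, -9.48 and -2.10 in the same order. Without WT4 they were -6.80 for Lyz2, -9.33 for Xcr1 and -0.82 for Ctss. Under limma voom Chil3 was tested and not called, at a log2 difference of -4.47, while Ctss was called lower, at -4.64 against -1.51.

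Counting bounds give the sizes in another way, on the same scaling and for counting error only. Xcr1 was at least 29.6-fold lower in KO and Cd68 at least 72.2-fold lower, against 3 counts over the 5 KO libraries. The ratio of WT to KO was 77.3 for Mrc1 (exact 95% interval 21.4 to 639, 2 KO counts) and 60.5 for Csf1r (10.8 to 2394, 1 KO count). For Lyz2 it was 357 (153 to 1098, 5 KO counts) and for Chil3 487 (304 to 835, 17 KO counts). Without the WT library that held most of the gene, the ratio was 101 for Chil3 and 117 for Lyz2 (without WT4), and 42.4 for Mrc1 and 23.6 for Csf1r (without WT2). The bound for Cd68 was then 31.1-fold (without WT4) and that for Xcr1 22.4-fold (without WT2). These intervals leave out the spread between libraries, which for Chil3 covered WT1 and WT5 at KO levels.

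In KO, 32 of the 35 values of the 7 genes with counts were at most 3 and 20 were 0, against 5 of 35 at most 3 in WT. Lyz2, Cd68, Mrc1, Xcr1 and Csf1r were missing from all 5 KO libraries, Chil3 from 4 and Ctss from 3. Since the KO libraries were shallower and held fewer genes, each gene was set beside the genes of its level in WT, in CPM of the library total without TMM. Among 3164 genes at 5 to 20 CPM, where Cd68, Mrc1 and Xcr1 lie, 51.3% were missing from all 5 KO libraries. Among 2564 genes at 1 to 5 CPM, where Csf1r lies, 68.2% were. The absence of these 4 genes from KO was thus shared with more than 50% of the genes of their mean WT level.

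By mean WT level, Lyz2 and Chil3 were missing from more KO libraries than most genes of their level. Both were chosen by these same counts, so this is a description. Of 719 genes at 100 to 200 CPM, 11 (1.53%), Lyz2 among them, were missing from all KO libraries. Of 513 genes at 200 to 1000 CPM, Chil3 was the 1 gene (0.195%) missing from 4 or more. For Ctss, 176 of the 719 genes of its level (24.5%) were missing from at least as many. The mean level of these genes leans on WT4, so genes were also placed by their median. Then 22.4% of 1888 genes at 20 to 50 CPM were missing from all KO libraries as Lyz2 was, beside 22.3% of all genes tested. For Chil3, 0.419% of 477 genes at 200 to 1000 CPM were missing from 4 or more as it was. For Ctss, 56.9% of 1088 genes at 50 to 100 CPM were missing from at least as many. Placed by median, 47.0% of the 2734 genes at 5 to 20 CPM were missing from all KO libraries as Cd68 was. At 1 to 5 CPM, where Xcr1 and Csf1r then lie, 62.7% of 1963 genes were. The median of Mrc1, 0.981 CPM, lay below the lowest band. The placing by median was added after the data were seen.

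**Figure D5:**
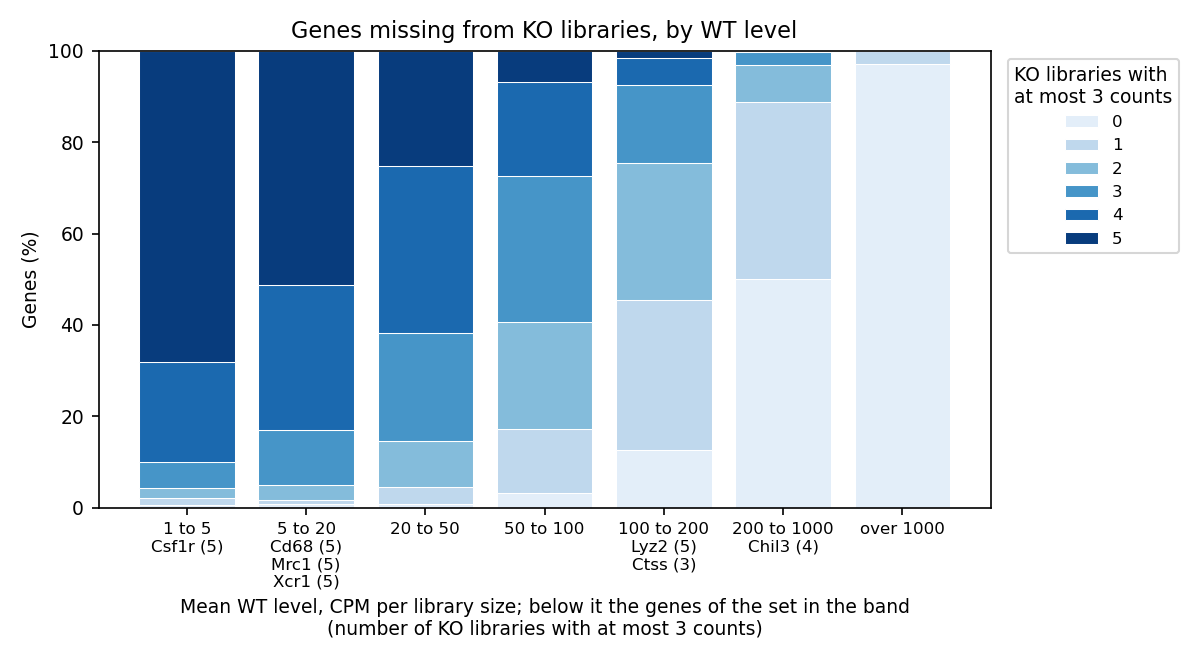
Share of genes (vertical axis, percent) missing from 0 to 5 KO libraries, by bands of mean WT level in CPM of the library total (horizontal axis); the genes of the set are named under their band. The share missing from all 5 KO libraries is 68.2% at 1 to 5 CPM, 51.3% at 5 to 20 CPM and 1.53% at 100 to 200 CPM.

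Among the listed genes of the same cells, fewer could be tested than were listed. Of the 16 mononuclear phagocyte genes outside the set, 3 were tested and 2 fell, beside 27.1% of all genes tested. Mpeg1, the pore-forming perforin-2 of macrophages, fell by 8.33 on the log2 scale (SE 2.09; edgeR adjusted p = 0.00478), from 32, 999, 946, 2382 and 36 counts in WT1 to WT5 to 1 count in KO5 and 0 elsewhere. Cybb, the core of the phagocyte oxidase, fell by 6.63 (SE 1.49; edgeR adjusted p = 0.00224), from 97, 453, 157, 1030 and 59 counts to 2 counts in KO2. For both, all 5 KO libraries lay below every WT library. The other tested gene, Fcer1g, stood at -0.21 (edgeR adjusted p = 0.946). The median log2 difference over the 3 was -6.63, which is that of Cybb. Mpeg1 and Cybb had at most 2 counts in any KO library, so they passed the filter through their WT libraries. Lower was then the only call open to them, and their falls are descriptions. The same holds for Stab1, Fn1, Naaa, Ctsz, Ctsa, Csf1 and Cstb below.

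The scavenger receptor gene Stab1 fell by 7.30 (SE 1.57; edgeR adjusted p = 0.00182) and was 1 of 2 interstitial macrophage genes tested. Its counts were 172, 410, 237, 1047 and 174 in WT1 to WT5 and 1 in KO5 alone. The other, the chemokine receptor gene Cx3cr1, stood at 0.98 (edgeR adjusted p = 0.728). The fibronectin gene Fn1 was 1 of 3 monocyte genes tested, and the list's median was 1.17, with Ccr2 at 1.29 (edgeR adjusted p = 0.473) and Plac8 at 1.17 (edgeR adjusted p = 0.729). Fn1 fell by 6.26 (SE 1.51; edgeR adjusted p = 0.00365), from 66, 621, 193, 1628 and 19 counts to at most 2 per KO library. Without any 1 of WT1 to WT4, Fn1 no longer passed the filter and was not tested. In both Stab1 and Fn1 WT4 was highest and all 5 KO libraries lay below every WT library. None of the 2 tested alveolar macrophage genes outside the set passed, Pparg at 1.18 (edgeR adjusted p = 0.597) and Abcg1 at -4.55 (edgeR adjusted p = 0.0684). Naaa, an amide hydrolase listed for type 1 dendritic cells, fell by 4.15 (SE 1.31; edgeR adjusted p = 0.0217), with 18, 193, 189, 162 and 15 WT counts and 3 KO counts, and 4 of 5 KO libraries lay below every WT library. The call of Naaa held in 2 of 10 alternatives, with library size alone and without KO1. It was lost without any 1 of KO2, KO3, KO4 and KO5 (edgeR adjusted p of 0.0917 to 0.0956), with RLE factors (0.0931), without a filter (0.106), with voom (0.155) and with DESeq2 (0.0951), and Naaa was not tested without any 1 WT library.

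Ctss belongs to the lysosomal proteases, and several of its relatives fell where Ctss itself was not called. Of the 13 other cathepsin and lysosome genes listed, 9 were tested, 5 fell and none rose, beside 27.1% lower over all genes tested. Those that fell were Ctsa, Ctsd, Ctsh, Ctsz and Lamp2, with 3, 0, 0, 1 and 4 counts over the KO libraries. They passed the filter through their WT libraries, so lower was the only call open to them and nothing is read from their number. The median log2 difference over the 9 was -7.59, which is that of Lamp2, against -0.47 over all genes. Ctsz, a carboxypeptidase, fell by 8.89 (SE 1.76; edgeR adjusted p = 0.00163), from 1472, 443, 568, 1185 and 443 counts in WT1 to WT5 to 1 count in KO4. Ctsa, the protective protein of beta-galactosidase, fell by 7.95 (SE 1.99; edgeR adjusted p = 0.00467), from 1124 to 2813 counts per WT library to 3 counts over KO, with 39.0% of its exon bases inside another gene. Ctsz and Ctsa did not follow the order of Chil3, since WT1 was highest for Ctsz and WT4 only just above WT5 for Ctsa. Of the 13, 6 were highest in WT4 (Ctsa, Ctsb, Ctsl, Ctsw, Lgmn and Cd63) and the rest in another WT library. Ctsl had 122, 13, 200, 1977 and 301 counts in WT1 to WT5. Ctsb, the endopeptidase cathepsin B, stood at -0.56 (edgeR adjusted p = 0.838), with 1490 of its 1626 KO counts in KO2. Its counts in WT1 to WT5 were 2442, 2758, 3076, 5863 and 1903. Without KO1 or without KO4, the whole list of 14 had 8 lower in place of 5.

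A further list held ligands, substrates and inhibitors of the products of the set, and which cells held these transcripts was not tested. Csf1, the ligand of Csf1r, had 801, 2232, 415, 618 and 1792 counts in WT1 to WT5 and fell by 7.24 (SE 1.60; edgeR adjusted p = 0.00206), with 1 count in each of 4 KO libraries and 0 in KO1. Csf1 thus was in every WT library, WT1 and WT5 included, and WT2 was highest for both ligand and receptor. WT4, the next highest for Csf1r, held fewer Csf1 counts than WT1 and WT5. Cstb, an inhibitor of cysteine cathepsins, fell by 8.89 (SE 1.91; edgeR adjusted p = 0.00178), from 4560 counts in WT to 1 in KO, and was not tested without any 1 of WT2 to WT5, when it did not pass the filter. For Csf1 and Cstb, all 5 KO libraries lay below every WT library. Cst3, the secreted inhibitor cystatin C, stood at -0.39 (edgeR adjusted p = 0.905), and Cd74, the invariant chain that cathepsin S cleaves, at 1.22 (edgeR adjusted p = 0.577), and the direction of both turned under another scaling. Xcl1, the ligand of Xcr1, lies inside another gene and was not measured.

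Genes whose WT pattern was most like the set were found by comparing 6297 genes of at least 5 CPM in WT with the mean standardised profile of Chil3, Lyz2, Ctss and Xcr1, the 4 members with counts above 3 in all 5 WT libraries. The 10 nearest were Mtf2, Anapc16, Mars, Ssna1, Mrgbp, Cybb, Fn1, Sugp2, Isg20l2 and Lgals3, with r from 0.985 down to 0.966 over 5 libraries. Cybb, Fn1 and Lgals3 are expressed by macrophages, and the others are known as genes of chromatin, cell division, translation and RNA processing. Among the 4 themselves, Lyz2 had r = 0.968 with the mean of the other 3, Chil3 0.698, Ctss 0.253 and Xcr1 -0.397. The nearest to Chil3 alone were Slc7a2 (0.9997), Clec7a (0.997), Ptgir (0.996) and Mpeg1 (0.994), and the nearest to Xcr1 alone was Wipf2 (0.9997), comparisons that were chosen after the data were seen. Slc7a2 had 17905 counts in KO3 and Ptgir 2773 in KO2, unlike Chil3. Over 5 libraries and 6297 genes, the order of such values among genes is loosely fixed.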

How the data were processed

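The deposited values are read counts per gene, whole numbers made by the authors and not normalized. STAR 2.6.0c, SAMtools 1.8, HTSeq 0.9.1 and build GRCm38 are named in the submitters' processing notes; no source used here gives the annotation release or strand setting, and reads of overlapping genes may have been dropped in counting. The kit is strand-specific, per the labels' protocols. Positions and overlaps are from GENCODE M21, which matched 54723 of 54838 identifiers. Genes were kept by filterByExpr (minimum count 10), scaled by TMM and tested with edgeR 4.0.16 (R 4.3.3, limma 3.58.1), quasi-likelihood, at an adjusted p under 0.05. A standard error is the log2 difference divided by the square root of F. Alternatives were RLE factors, library size alone, no filter, voom, DESeq2 1.42.0, other thresholds and pseudocounts (1 in the text), thinning and leaving out each library. Since the labels name no molecular identifiers, reads may be copies of 1 molecule. The members and lists were chosen with earlier results of these data known. Named are all members, Maf, each described list's defining markers and up to 4 highest genes per kilobase, and the 10 genes nearest in profile; Mpeg1, Cybb, Clec7a, Spi1, Lpl, Itgax, Sirpa, Adgre1 and Fcer1g, where not covered by this rule, were picked after their values were seen. The test was checked on simulated data, where, with KO libraries more variable than WT libraries, it called more unchanged genes than the adjusted threshold allows. Not every list made is reported.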

Additional observations from a re-analysis of the deposited data

Results flagged for a closer look

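Among the 9 groups of 5 libraries, WT or KO, in which a member had over 3 counts in some library, 3 held a value whose gap to its neighbour exceeded 0.71 of the group's whole range; chance gives this in about 1 group in 20, but that rate does not apply to genes chosen by these same counts, so the values are descriptions. The Chil3 level of 1287 CPM in WT4 lay apart by 0.880 of the WT range. The Lyz2 level of 247 CPM, also in WT4, lay apart by 0.807. The Chil3 level of 3.94 CPM in KO5, which rests on 9 counts, lay apart by 0.756 of the KO range.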

How the results depend on the processing

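No paired analysis was possible because the labels give no replicate numbers shared between the groups. Depth limits the KO values most in KO1, where a count of 3 is worth 3.53 CPM, above the WT mean of Csf1r. The number of genes higher in KO, 112, was 193 with RLE factors, 49 with library size alone, 2345 without a filter, 71 with voom, 1470 with DESeq2 and 82 to 333 with 1 library left out. The number lower, 2027, was 1734 to 3350 with 1 library left out. Lower calls were 94.8% of all calls, 56.3% without a filter and 63.4% with DESeq2. The median over all genes was -0.47, against 0.09 with RLE factors, -1.77 with library size, -3.58 with voom and 1.24 with DESeq2. Members called were 3, and 5 without a filter, where Cd68 and Mrc1 were added; Cd68 was also called by DESeq2. They were 2 to 3 with 1 library left out. Members missing from all KO libraries were 5, and 2 at exactly 0 counts. The median correlation of 0.549 was 0.38 to 0.81 with 1 library left out and 0.418 to 0.573 otherwise. Cst3 turned to 0.063 with RLE factors and 0.024 with DESeq2 and stood at -2.972 without KO4 and -4.661 with voom, and Cd74 to -0.013 with library size, -0.137 without KO4 and -0.598 with voom, and lay between -0.137 and 1.605 with 1 library left out; the cause was not tested.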
